A study of Homo sapiens with 6 samples.

Results

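The SOX genes encode transcription factors that bind DNA through a shared HMG box, a domain named after the high mobility group proteins. The 9 members described here are SOX1 and SOX2 of group B1, SOX14 and SOX21 of group B2, SOX4 and SOX11 of group C, SOX5 of group D, SOX9 of group E and SOX17 of group F. They were chosen by name, and each was given a span on hg19 in whole kb. An island, the term of the caller SICER for an interval enriched over input, counted as a member's when at least 1 base of it lay within 5 kb of the span. Of 72972 islands in the 3 lists, 29 met this rule: 11 of 21320 in Pfeiffer, 5 of 23180 in WSU-DLCL2 and 13 of 28472 in KARPAS-422. All 9 names stand in RefSeq (GRCh38.p14) on the chromosome that the rule gives. RefSeq lengths differed from the spans by less than 2.5 kb in 9 of 9 genes. No annotation on hg19 was used, so gene ends are known only as far as these spans give them.

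The lists come from chromatin immunoprecipitation and sequencing in 3 established human lines from diffuse large B cell lymphomas. The series describes them as unequal in their response to GSK126, an inhibitor of EZH2. All 3 carry mutant EZH2 and were cultured for 24 hours before fixation, and the labels give no compound treatment. Average gIC50 values in the labels, which do not name the compound, are 28 nM for Pfeiffer, 134 nM for WSU-DLCL2 and 232 nM for KARPAS-422. Where 3 values follow each other without a name, they belong to Pfeiffer, WSU-DLCL2 and KARPAS-422 in that order. Each line is represented by 1 H3K27me3 library and 1 input library, so differences between lines have no replicate spread and no p-value, and no line without an EZH2 mutation was analysed here. Over whole lists, islands held 17044334, 17217610 and 16319667 H3K27me3 reads and 8808243, 8235295 and 5800163 input reads in the 3 lines. Islands covered 25.6%, 24.8% and 24.7% of the autosomes.

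H3K27me3 is placed by Polycomb repressive complex 2, whose catalytic subunit is EZH2, and marks genes that are kept silent. Developmental transcription factor genes of other lineages, many SOX genes among them, are classic targets of the complex in embryonic stem cells and in differentiated tissues. SOX2 maintains pluripotent and neural stem cells, SOX9 directs cartilage and testis development, and SOX4 acts in early B lymphocyte development in mice. SOX11 is best known in lymphoma from mantle cell lymphoma, where it is often expressed. Transcription of the genes in these lines was not analysed here.

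Within 5 kb, 6 of 9 SOX genes had an island in some lines and not in others, and within 10 kb 4 of 9 did (SOX4, SOX11, SOX14 and SOX17). An island lay within 5 kb of 7 of 9 genes for Pfeiffer, 5 of 9 for WSU-DLCL2 and 5 of 9 for KARPAS-422, or 17 of the 27 combinations of gene and line. At 10 kb the counts were 7, 7 and 7 of 9, so the difference in count between the lines was present at 5 kb and not at 10 kb. SOX2, SOX5 and SOX9 had an island within 5 kb in all 3 lines, and SOX1 and SOX21 joined them at 10 kb. SOX11 had islands in Pfeiffer and KARPAS-422, and SOX17 in Pfeiffer and WSU-DLCL2. SOX1 and SOX21 had them in Pfeiffer only under this rule, SOX4 in WSU-DLCL2 only and SOX14 in KARPAS-422 only. SOX5 spans 1031 kb, so its count says little, and the other 8 genes, with spans of 2 to 10 kb, are counted apart. Of these 8, 6 had an island for Pfeiffer, 4 for WSU-DLCL2 and 4 for KARPAS-422. Autosomal tiles of 15 kb, the median length of these 8 windows, held at least 1 base of an island in 32.9%, 32.7% and 33.9% of cases. The shares of genes with an island were above those of tiles in each line, but rest on 8 genes and were not tested. Tiles with an island in some lines and not in others were not counted, and no tile share was taken for 10 kb. The 6 of 9 and 4 of 9 genes that differed between lines therefore have no share over all tiles to be set against.

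**Figure D1:**
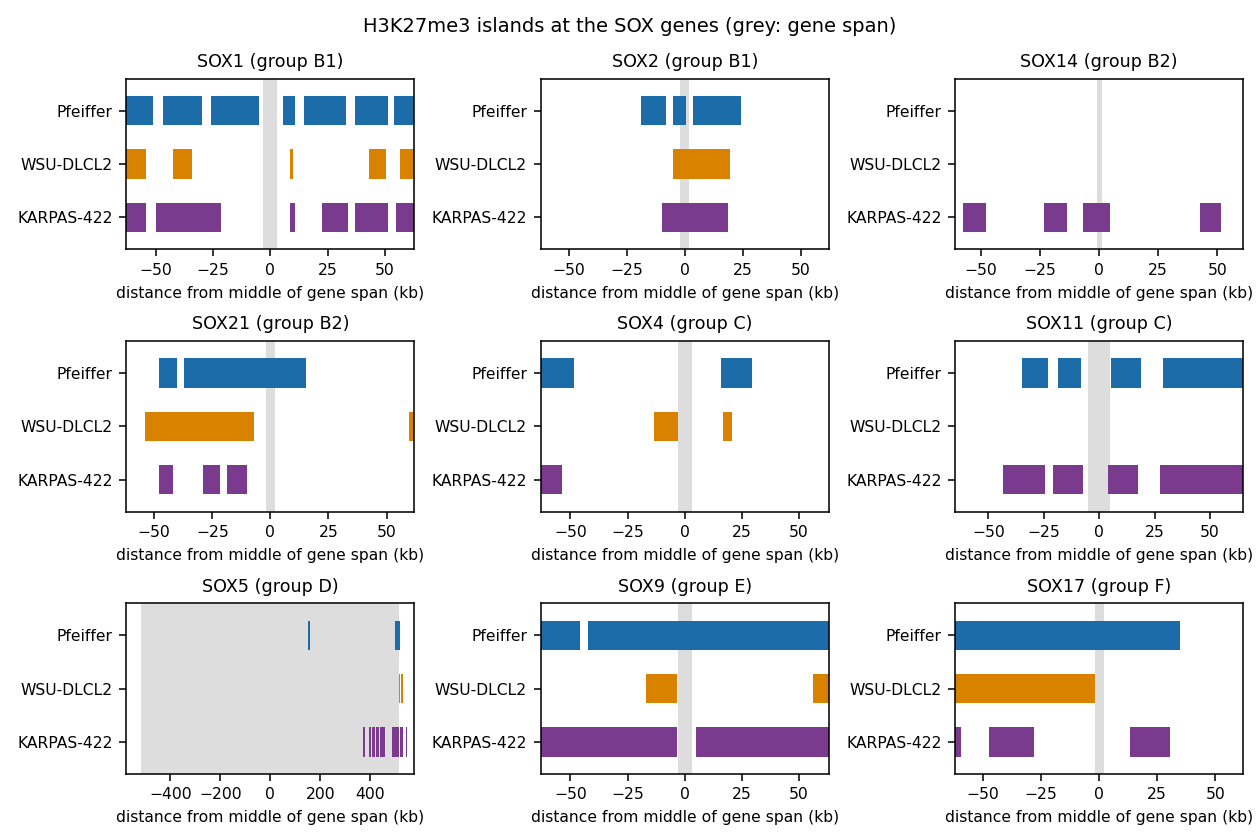
Islands of H3K27me3 (bars) at the 9 SOX genes in Pfeiffer, WSU-DLCL2 and KARPAS-422, against distance in kb from the middle of the gene span (grey). Bars of KARPAS-422 end 0.25 kb below the span of SOX9 and resume 2 kb above it, and within 60 kb of SOX14 bars appear in KARPAS-422 only.

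The covered share of the windows, meaning the span with 5 kb to either side, varied between lines for nearly every member. Pfeiffer had 3 windows covered over at least 90% (SOX9, SOX17 and SOX21, each at 100%), KARPAS-422 had 1 (SOX2, at 100%) and WSU-DLCL2 had 0 of 9. Without SOX5, whose window of 1041 kb has no like among tiles of 15 kb, the counts were 3, 0 and 1 of 8 genes. Autosomal tiles of 15 kb were so covered in 17.7% of cases for Pfeiffer, 16.4% for WSU-DLCL2 and 15.0% for KARPAS-422. Pooled over the 8 short genes, islands covered 53.5% of the windows for Pfeiffer, 22.5% for WSU-DLCL2 and 33.6% for KARPAS-422. The pooled share was above that of the autosomes for Pfeiffer and KARPAS-422 and below it for WSU-DLCL2. Median shares over all 9 windows were 34.4%, 0.576% and 9.10%, and over the 8 windows without SOX5 50.2%, 14.8% and 21.9%.

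**Figure D2:**
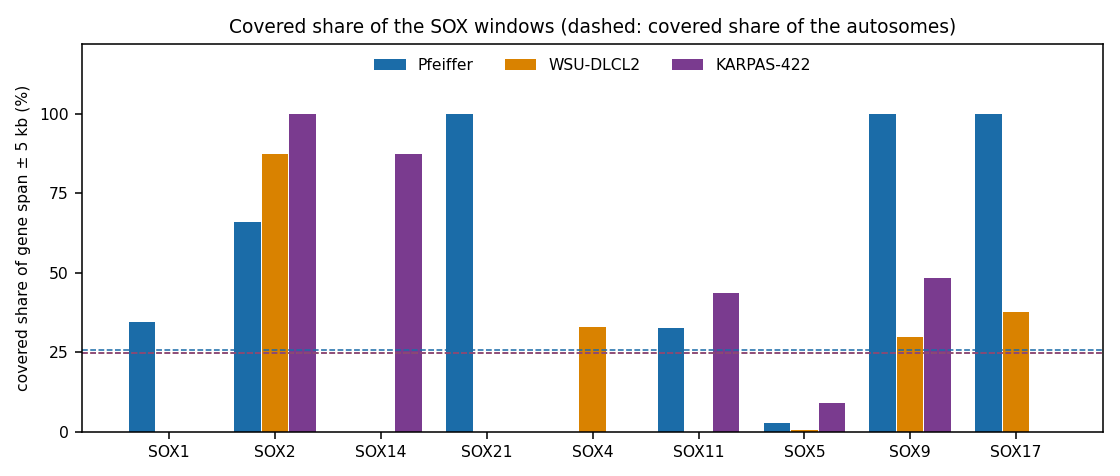
Share of each SOX window (gene span with 5 kb to either side) covered by islands in the 3 lines, in percent, with dashed lines at the covered share of the autosomes. SOX2 lies above the dashed lines in all 3 lines (66.1%, 87.5% and 100%), and SOX5 below them (2.81%, 0.576% and 9.10%).

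Promoters of 5 members stand in the RefSeq table of promoters used here. Those of SOX1, SOX2 and SOX5 are printed because they stand for 3 patterns: the kb at the start end of the hg19 span lay outside islands in every line for SOX1, inside them in every line for SOX2, and inside in Pfeiffer and WSU-DLCL2 but not in KARPAS-422 for SOX5. Each runs from 250 bases before the start to 50 after it, 5′ to 3′ on the strand of the gene, with every CG in capitals. Positions are on GRCh38.p14 and cannot be set against island positions, which are on hg19. The SOX1 promoter lies at chr13:112066899-112067198 on the plus strand, that of SOX2 at chr3:181711675-181711974 on the plus strand and that of SOX5 at chr12:24562442-24562741 on the minus strand.
SOX1: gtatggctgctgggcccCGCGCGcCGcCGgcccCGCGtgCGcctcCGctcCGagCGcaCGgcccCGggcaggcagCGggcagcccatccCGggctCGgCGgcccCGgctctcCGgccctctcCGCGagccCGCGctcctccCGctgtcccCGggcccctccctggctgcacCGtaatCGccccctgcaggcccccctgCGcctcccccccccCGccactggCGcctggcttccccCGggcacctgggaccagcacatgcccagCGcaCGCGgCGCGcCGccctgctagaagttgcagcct
SOX2: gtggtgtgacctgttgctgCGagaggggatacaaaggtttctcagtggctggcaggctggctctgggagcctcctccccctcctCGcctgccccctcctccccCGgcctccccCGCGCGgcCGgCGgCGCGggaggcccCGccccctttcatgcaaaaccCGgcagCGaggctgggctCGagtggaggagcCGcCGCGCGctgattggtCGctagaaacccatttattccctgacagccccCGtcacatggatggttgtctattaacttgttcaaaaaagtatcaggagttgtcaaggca
SOX5: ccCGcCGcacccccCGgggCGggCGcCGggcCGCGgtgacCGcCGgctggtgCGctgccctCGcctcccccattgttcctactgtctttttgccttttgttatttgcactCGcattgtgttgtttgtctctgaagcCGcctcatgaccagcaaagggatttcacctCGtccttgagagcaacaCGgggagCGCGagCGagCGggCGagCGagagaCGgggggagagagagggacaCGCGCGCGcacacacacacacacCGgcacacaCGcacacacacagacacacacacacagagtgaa

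CG dinucleotides, the sites of CpG methylation and the letters that define CpG islands, were counted in these 300 bases; CG reads the same on both strands. SOX1 held 37, a number that 11.3% of the 35116 promoters in the table reach, and SOX5 held 29, which 24.2% reach. SOX2 held 20 (41.2% reach it), SOX21 held 15 (48.9%) and SOX4 held 8 (60.7%), against a median of 14 over the table. The start of SOX1, with the most CG, lay outside islands in all 3 lines. SOX4, with the fewest, also had its start outside islands in Pfeiffer and KARPAS-422, and 250 of 1000 bases of that kb were covered in WSU-DLCL2. With 5 promoters no relation between CG and the mark was examined.

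SOX2, a group B1 factor, had 66.1% of its window covered in every line, the highest such share of the 9 members. In Pfeiffer its islands ran from 181425751 to 181431750 and from 181434751 to 181455000 on chromosome 3. In WSU-DLCL2 a single island ran from 181425751 to 181450500, and in KARPAS-422 from 181421251 to 181449750. The lower limit was thus the same in Pfeiffer and WSU-DLCL2 and 4.5 kb farther out in KARPAS-422, and the upper limits lay within 5.25 kb of each other. Stretches of 6 and 15 kb, from 181425751 to 181431750 and from 181434751 to 181449750, were covered in every line.

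Reads over the SOX2 islands were 583 for H3K27me3 and 234 for input in Pfeiffer, 369 and 203 in WSU-DLCL2, and 469 and 185 in KARPAS-422. Fold over input, the authors' ratio after scaling of the libraries, was 2.16 (95% interval 1.54 to 3.07) and 2.14 (1.80 to 2.55) for the islands of Pfeiffer. WSU-DLCL2 had a fold of 1.43 (1.20 to 1.71) and KARPAS-422 one of 1.54 (1.30 to 1.84). In Pfeiffer these folds stood at percentiles 94.8 and 94.2 of its list, against 32.1 for WSU-DLCL2 and 40.8 for KARPAS-422 within their own lists. Intervals are exact for the ratio of 2 counts and cover counting error only, since amplified reads are not independent molecules. SOX2 lies within SOX2-OT, a long non-coding RNA gene, so the island cannot be assigned to either gene. Relative input around SOX2, which is the input reads per kb of islands within 2.5 Mb over the autosomal median of the line, was 0.964, 0.973 and 1.28. Within 1 Mb it was 0.841, 0.891 and 1.05, lower in each line and still highest in KARPAS-422.

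SOX1, the other B1 gene and like SOX2 a factor of neural progenitors, lay in a gap between islands in every line. In Pfeiffer the gap ran from 112719001 to 112729500 on chromosome 13 (10.5 kb), with islands 2 kb below and 2.5 kb above the span of 6 kb. WSU-DLCL2 had a gap of 42.75 kb, from 112689751 to 112732500, and KARPAS-422 one of 30 kb, from 112702501 to 112732500. Islands reaching within 60 kb of the span numbered 7 for Pfeiffer, 5 for WSU-DLCL2 and 6 for KARPAS-422. Nearest in Pfeiffer were islands with 340 and 108 H3K27me3 reads and 179 and 65 input reads, at folds of 1.64 (1.36 to 1.97) and 1.43 (1.04 to 1.98).

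A short stretch above SOX1, from 112732501 to 112734000, was covered in all 3 lines. In WSU-DLCL2 and KARPAS-422 this was an island of its own, 0.5 kb outside the limit of 5 kb, and in Pfeiffer it lay inside the island of 5.25 kb from 112729501. The island of KARPAS-422 was 2.25 kb long with 92 H3K27me3 and 13 input reads, and its fold of 4.30 (2.40 to 8.38) stood at percentile 99.8 of the list. That of WSU-DLCL2 was 1.5 kb long with 61 and 30 reads and a fold of 1.60 (1.02 to 2.57). SOX1 lies within SOX1-OT, a non-coding RNA gene, so the stretch cannot be assigned to either. Relative input was 1.03, 1.04 and 0.870 in the 3 lines.

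Group B2, whose members act as repressors in neural development, had its 2 genes covered in different lines. SOX14 was covered in KARPAS-422 alone, by an island from 137477251 to 137488500 on chromosome 3 with 178 H3K27me3 and 55 input reads. Its fold was 1.97 (1.45 to 2.71), percentile 79.0 of the list, and it covered the whole span of 2 kb. Pfeiffer and WSU-DLCL2 had no island from 136986751 to 137560500 (573.75 kb) and from 136833001 to 137559750 (726.75 kb). Of the gaps between successive autosomal islands, 97.5% in Pfeiffer and 98.1% in WSU-DLCL2 were shorter. Input around SOX14 was near the median in every line, at 0.996, 0.989 and 1.03.

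SOX21 was covered in Pfeiffer alone, by an island of 52.5 kb from 95325751 to 95378250 on chromosome 13 with 891 H3K27me3 and 475 input reads (fold 1.62, 1.44 to 1.81). In WSU-DLCL2 an island of 46.5 kb with 851 and 500 reads ended at 95355750, which is 5.25 kb below the span and 0.25 kb outside the limit. In KARPAS-422 the nearest island ended at 95352750, with 161 and 49 reads and a fold of 1.997 (1.44 to 2.81). Stretches of 7.5 and 8.25 kb below the gene, from 95334001 and from 95344501, were covered in every line. The lines therefore shared called stretches beside SOX21, and an island over the gene itself was called in Pfeiffer only. The island just inside the limit that lay farthest from a span was that of Pfeiffer below SOX11, at 3 kb.

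Islands covered at most 10% of the spans of the group C genes SOX4 and SOX11 in any line. This was not particular to group C, since the span of SOX1 had 0% in all 3 lines. At SOX4 the only island was that of WSU-DLCL2, from 21582751 to 21593250 on chromosome 6, with 216 H3K27me3 and 97 input reads and a fold of 1.75 (1.37 to 2.25). It covered 0.25 kb of the span of 6 kb, at the end that holds the start. In Pfeiffer the gap around SOX4 was 64.5 kb, and in KARPAS-422 324 kb, from 21542251 to 21866250. Input around SOX4 was 0.894, 0.901 and 0.912.

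At SOX11 the islands of Pfeiffer and KARPAS-422 lay to either side of the gene at nearly the same places. Those of Pfeiffer left the span of 10 kb free, and the upper island of KARPAS-422 covered 1 kb of it. Pfeiffer had islands from 5818501 to 5829000 and from 5842501 to 5856000 on chromosome 2, and KARPAS-422 from 5816251 to 5829750 and from 5841001 to 5854500. Outer limits differed by 2.25 kb at the lower end and 1.5 kb at the upper end, and 11.25 kb of the window of 20 kb was covered in no line. H3K27me3 and input reads were 430 and 232 in Pfeiffer and 503 and 240 in KARPAS-422. The pooled fold was 1.60 (1.36 to 1.88) in Pfeiffer and 1.27 (1.09 to 1.49) in KARPAS-422. The lower island of KARPAS-422, at a fold of 1.22 (0.990 to 1.52), was the only one of the 29 whose interval reached below 1. Islands are listed because they passed the caller's threshold over input, so an interval above 1 is no separate support. WSU-DLCL2 had no island from 4033501 to 6072750, a gap of 2039.25 kb, and 99.3% of its autosomal gaps were shorter. Relative input was 1.06, 1.06 and 1.02, though in WSU-DLCL2 it was read entirely outside this gap.

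SOX5, the group D gene, lacks an activation domain of its own and acts with SOX9 in cartilage. Its islands, apart from 1 of Pfeiffer, sat near the upper end of the span, and RefSeq places the gene on the minus strand, so this is the start. Of 10 equal parts of 103.1 kb, the highest was covered over 17.2% for Pfeiffer, 3.39% for WSU-DLCL2 and 62.4% for KARPAS-422. The next part was covered in KARPAS-422 alone (25.6%). Below it the only island was one of 9 kb in Pfeiffer, from 24350251 to 24359250 on chromosome 12, with 148 H3K27me3 and 75 input reads. Over the whole window coverage was 2.81%, 0.576% and 9.10%, and 31.3%, 24.3% and 39.8% of autosomal tiles of that length had no more.

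The stretches nearest the start of SOX5 differed in detail. Pfeiffer had an island from 24698251 to 24718500 with 350 and 211 reads, and WSU-DLCL2 one from 24712501 to 24718500 with 120 and 50 reads. Both covered the kb of the start whole and ended at the same window. KARPAS-422 had islands from 24687001 to 24714000 and from 24717001 to 24732000, which left 1 kb free to either side of the kb of the start. Their folds were 1.24 (1.06 to 1.47) and 1.54 (1.24 to 1.93), against 1.43 (1.20 to 1.70) in Pfeiffer and 1.89 (1.35 to 2.69) in WSU-DLCL2. The 7 islands of KARPAS-422 together held 1930 H3K27me3 and 830 input reads. Input around SOX5 was 0.977, 0.975 and 1.05.

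SOX9, the group E gene, had the longest island of any member, in KARPAS-422. Pfeiffer covered it whole with an island of 131.25 kb, from 70077751 to 70209000 on chromosome 17, with 3115 H3K27me3 and 1720 input reads (fold 1.56, 1.47 to 1.65). KARPAS-422 had islands from 70030501 to 70116750 (86.25 kb, 1943 and 740 reads, fold 1.60, 1.47 to 1.74) and from 70125001 to 70480500 (355.5 kb, 9890 and 3008 reads, fold 1.998, 1.92 to 2.08). The larger one was exceeded in length by 28 of 28472 islands. WSU-DLCL2 had a single island of 13.5 kb, from 70103251 to 70116750, with 217 and 125 reads (fold 1.37, 1.09 to 1.72). That stretch of 13.5 kb was covered in every line.

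The edge of SOX9 on its lower side was the same in WSU-DLCL2 and KARPAS-422. Both islands ended at 70116750, which is 0.25 kb before the span of 6 kb begins. In KARPAS-422 the mark resumed at 70125001, leaving a gap of 8.25 kb that held the gene, and in WSU-DLCL2 it resumed at 70176001. Relative input around SOX9 was 1.41 in Pfeiffer, the line with the gene covered, against 0.963 for WSU-DLCL2 and 0.960 for KARPAS-422. Within 1 Mb the value of Pfeiffer was 1.28. The part of the raised input in its coverage was not tested. SOX9-AS1 is the next gene on the lower side in RefSeq, so the islands there cannot be assigned to SOX9 alone.

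SOX17, the group F gene, which directs endoderm and acts in fetal blood stem cells in mice, was reached by long islands in 2 lines. Pfeiffer had an island of 341.25 kb, from 55065751 to 55407000 on chromosome 8, with 7902 H3K27me3 and 4902 input reads. WSU-DLCL2 had one of 165 kb, from 55205251 to 55370250, with 3609 and 2419 reads, which reached 0.25 kb into the span of 4 kb. Their folds of 1.39 (1.34 to 1.44) and 1.18 (1.12 to 1.24) were low within their lists, at percentiles 20.4 and 0.777. KARPAS-422 had no island from 55344001 to 55385250, and the nearest began 11.25 kb above the gene. Relative input was 1.35 in Pfeiffer and 1.34 in WSU-DLCL2, the lines with an island, against 0.997 in KARPAS-422. The part of the input in this coverage was not tested.

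**Figure D3:**
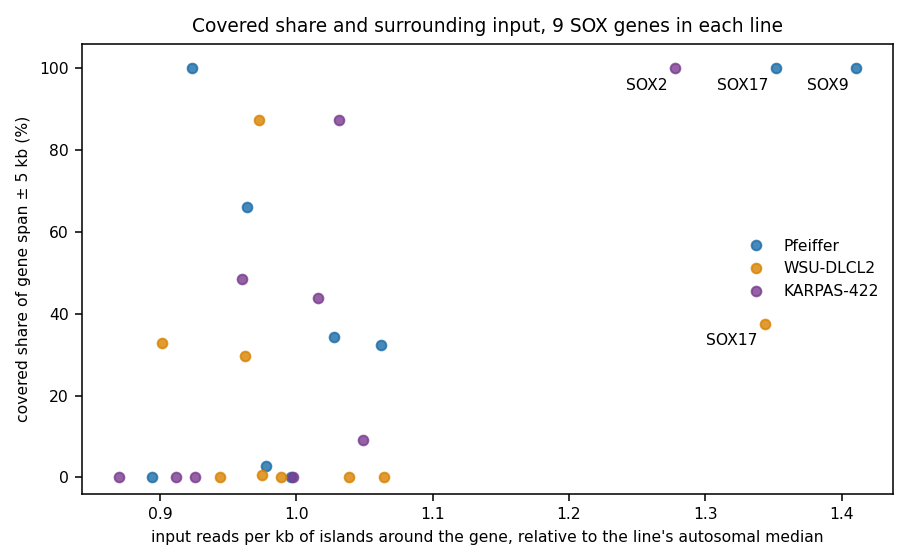
Covered share of each SOX window in percent against relative input around the gene (input reads per kb of islands within 2.5 Mb over the autosomal median of the line), 9 genes in each of 3 lines. The 4 highest inputs are SOX9 and SOX17 in Pfeiffer and SOX2 in KARPAS-422, each covered at 100%, and SOX17 in WSU-DLCL2 at 37.5%. Among the other points, shares ran from 0% to 100%.

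In 3 combinations of gene and line a gene was left free between near islands. Of the 24 combinations of the 8 short genes and the 3 lines, 14 had no base of an island in the span, 6 had the whole span covered and 4 a part of it. The share of all autosomal tiles of 5 kb that are free is not given here. Even of tiles of 12 kb, only 31.8%, 31.5% and 32.5% held a base of an island, so a free span is common. In 3 of the 14 an island lay within 5 kb on either side: SOX1 and SOX11 in Pfeiffer and SOX9 in KARPAS-422. That is 2 of 8 genes in Pfeiffer, 0 of 8 in WSU-DLCL2 and 1 of 8 in KARPAS-422. Autosomal tiles of 5 kb, the median span, were free and so flanked in 0.416%, 0.439% and 0.577% of cases. The feature was picked after the islands had been seen. SICER joins windows across short gaps, so at these settings a listed gap holds at least 3000 bases. The lists give no reads outside islands, so neither H3K27me3 nor input inside these gaps is known.

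Averaged over the 8 short genes and over both sides, coverage was lower in the span than just beside it in each line. In WSU-DLCL2 this held on 1 side only. Its nearest 2 kb were covered over 48.4% towards lower coordinates and 12.5% towards higher ones. In Pfeiffer the difference came from SOX1 and SOX11, whose spans were free in windows covered over 34.4% and 32.5%. There SOX2 had more in its span (68.75%) than in its window (66.1%), and the other short genes had equal shares in both. In WSU-DLCL2 it came from SOX4, SOX9 and SOX17, while SOX2 went the other way (100% of the span, 87.5% of the window). In KARPAS-422 it came from SOX9 (0% against 48.4%) and SOX11 (10% against 43.75%), while SOX14 went the other way (100% against 87.5%). Pfeiffer had 46.1% of the span covered, 60.6% of the 5 kb to either side and 70.6% from 5 to 10 kb. WSU-DLCL2 had 13.8%, 28.75% and 32.8%, and KARPAS-422 had 26.25%, 42.5% and 40.6%. From 30 to 50 kb the values were 39.5%, 17.4% and 41.6%. These are means of the shares of single genes. Pooled over the bases of the 8 spans, islands covered 39.9%, 10.7% and 16.7%, against 25.6%, 24.8% and 24.7% of the autosomes. By either measure the spans lay above the autosomes for Pfeiffer and below them for WSU-DLCL2, while KARPAS-422 lay above by the mean and below by the pooled share. Spans are placed to the kb, which blurs edges of this size.

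**Figure D4:**
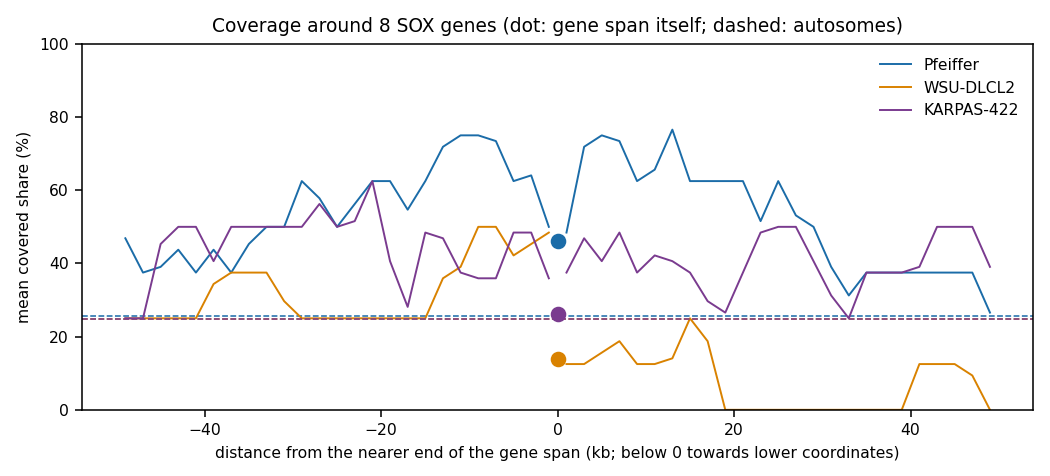
Mean share of bases covered by islands, in percent, in steps of 2 kb out to 50 kb from the nearer end of the gene span, over 8 SOX genes without SOX5, for each line. Dots give the span itself (46.1%, 13.8% and 26.25%) and dashed lines the autosomes.

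Folds of the SOX islands were spread over much of the range of their lists, from percentile 20.4 to 94.8 for Pfeiffer, 0.777 to 83.3 for WSU-DLCL2 and 2.11 to 80.5 for KARPAS-422. Below the median fold of the list were 5 of 11 islands of Pfeiffer, 3 of 5 of WSU-DLCL2 and 10 of 13 of KARPAS-422. Of these 13, 7 were neighbouring islands at SOX5, and the other 6 had a median fold of 1.57. Islands of 1 gene are not independent of each other. The median was 1.62 over the 11 islands of Pfeiffer, 1.43 over the 5 of WSU-DLCL2 and 1.46 over the 13 of KARPAS-422, against 1.58, 1.54 and 1.61 over all islands. The only folds of 2 or more were those of both SOX2 islands of Pfeiffer, so 2 of 11 islands there, 0 of 5 of WSU-DLCL2 and 0 of 13 of KARPAS-422. In KARPAS-422 the longer island at SOX9 (1.998, 1.92 to 2.08) and that at SOX14 (1.97, 1.45 to 2.71) fell just short. Over whole lists such folds made up 10.6%, 11.6% and 19.4%. Median lengths were 20.25 kb, 13.5 kb and 13.5 kb, against 20.25 kb, 18.75 kb and 15 kb in the lists. H3K27me3 reads per kb at the 17 combinations with an island ran from 14.9 at SOX2 in WSU-DLCL2 to 26.8 at SOX9 in KARPAS-422. Medians over all islands lay between 19.6 and 20.9 reads per kb, and densities depend on the depth of each library.

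**Figure D5:**
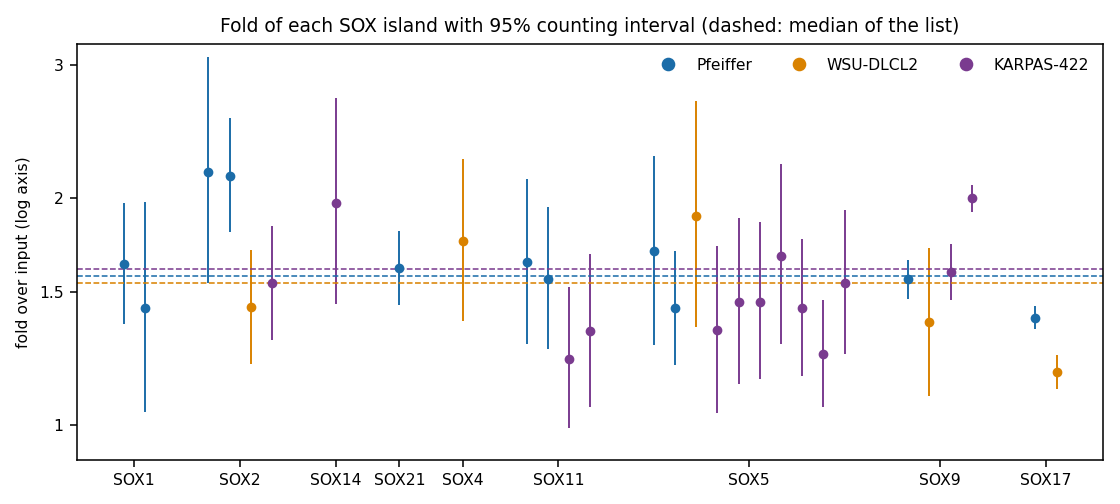
Fold over input of each of the 29 SOX islands (points, log axis) with its exact 95% counting interval, ordered by gene and coloured by line, with dashed lines at the median of each list. Points lie between 1.18 and 2.16, and those above 2 are the islands of SOX2 in Pfeiffer.

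The counts of genes depend on the distance allowed, as given above for 10 kb, and on the fold required. With islands of a fold of at least 2, an island was left at 1 gene in Pfeiffer and at 0 genes in WSU-DLCL2 and in KARPAS-422. Where no island is listed, the mark was not called, and the reads there are not known.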

How the data were processed

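Per the submitters' processing notes, Bowtie, SICER and hg19 were used; their versions, read filters and handling of duplicates are not stated there. SICER settings can be read from the names of the deposited lists: windows of 750 bases, joined over gaps of up to 2250 bases, at a false discovery rate of 0.001. Each island has 5 values that the authors deposited: the counts of H3K27me3 reads and input reads as whole numbers, a p-value, a q-value (the false discovery rate) and a fold, which is the ratio of the counts after scaling. Dividing the ratio of counts by the fold returned 1 scaling per list (1.16 for Pfeiffer, 1.27 for WSU-DLCL2, 1.65 for KARPAS-422). Only reads in islands are listed, so the full depth is unknown; a low input count widens the intervals of a fold.

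Spans and names of the 9 genes were fixed by rule, and all 9 are named. The members and lists were chosen with earlier results of these data known. Covered bases, gaps, autosomal tiles up to the last listed base, and relative input (at least 30 kb of islands) were computed in Python 3.11.15 with scipy 1.17.1, numpy 2.4.6 and pandas 2.3.3, and tested on simulated islands. With 1 library per line no test was run. Alternatives were margins of 0 and 10 kb, islands at 1e-10 or below, folds of 2 or more, an overlap of 50%, islands under 5 kb apart joined, reads inside windows only, input within 1 Mb, and, added after seeing the data, SOX5 left out. Other SOX genes were not analysed here, since no hg19 annotation was used. Positions count from 1.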

Additional observations from a re-analysis of the deposited data

How the results depend on the processing

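Counts of genes with an island (7, 5 and 5 in Pfeiffer, WSU-DLCL2 and KARPAS-422) were 5, 4 and 4 with no margin. With a margin of 10 kb they were 7, 7 and 7, so the totals no longer differed. Even so, 4 of 9 genes had an island in some lines and not in others at 10 kb, with no share over all tiles to set beside this. The totals at 5 kb changed as follows under other settings. They were 7, 5 and 5 with joined islands and 6, 4 and 4 without SOX5. With a fold of at least 2 they were 1, 0 and 0, and no window was covered over 90% in Pfeiffer (0) or KARPAS-422 (0). A false discovery rate of 1e-10 gave 6, 3 and 4 genes in the 3 lines, and an overlap of 50% gave 5, 3 and 3. With joined islands Pfeiffer had 4 genes covered over 90%, against 3 as deposited. With no margin, WSU-DLCL2 had 1 gene covered over 90% and KARPAS-422 had 2.

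The median covered share moved most, being set by 1 gene of 9. In Pfeiffer it was 2.59% with no margin, 0% at a fold of at least 2 and 2.81% with an overlap of 50%; in WSU-DLCL2 it was 19.8% with a margin of 10 kb; in KARPAS-422 it was 0% with no margin, at 1e-10, at a fold of at least 2 and with an overlap of 50%. Median folds moved to 2.15 at a fold of at least 2 and 1.66 with joined islands in Pfeiffer. In WSU-DLCL2 they were 1.59 with no margin, 1.52 with 10 kb and 1.75 with an overlap of 50%. In KARPAS-422 they were 1.54 with 10 kb, 1.64 at 1e-10 and 1.57 without SOX5. Without SOX5 the median shares were 50.2%, 14.8% and 21.9%. Fewer or more islands enter under these settings. Joining left 10 islands for Pfeiffer against 11 as deposited, and 9 for KARPAS-422 against 13. At a fold of at least 2 no island was left in WSU-DLCL2 or KARPAS-422 to give a median fold. Joining islands moved 11 of 34 domain limits. No paired analysis was possible because each group holds 1 library. Depth outside islands is unknown.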
